A study of Mus musculus with 4 samples.

Results

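The genes described here are 9 genes of cellular iron handling. Tfrc, Steap3, Slc11a2 and Hfe belong to iron uptake, and Fth1, Ftl1 and Ncoa4 to iron storage. Slc40a1 belongs to iron export and Ireb2 to iron regulation. The 9 were chosen by name for their function, not by a measured value, but with earlier results of these data known. They are 9 of the 50600 genes in the count files. All 9 had a row in every file. RNA was sequenced from 4 samples of mouse primary cells of the strain C57BL/6NJ with the label regulatory T cell, the CD4 T cells that restrain immune responses and are defined by the factor Foxp3. All samples form 1 group, so the design holds no contrast between conditions, and the genes were compared with each other within each library and across the 4 libraries. The labels state no genotype change, no treatment, and no known age or sex. They cite a protocol for differentiating CD4 T cells, and the column names in the files carry the word activated and a mark of 0 h. The 4 libraries are biological replicates 1 to 4 from separate biosamples under 1 donor record. The labels do not say whether these come from separate animals, so a p-value here speaks only for these 4 samples. Part of their scatter may be technical.

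The total gene count was 25573253, 62090744, 23000465 and 61943411 in replicates 1 to 4. Levels are given as TPM, a transcript abundance corrected for exon length and for the library total, as mean ± SD with n = 4. A gene was called detected at 1 TPM or more in all 4 libraries. All 7 T cell markers and all 9 regulatory T cell markers were detected, a threshold that 45.7% of protein-coding genes reached. The T cell marker Cd4 lay at 1067 ± 31.4 TPM. The regulatory T cell markers were lower, with Izumo1r the highest at 168 ± 8.51 TPM, then Tnfrsf18 at 107 ± 3.8 and Tnfrsf4 at 33.45 ± 6.35. Below them lay Ikzf4 at 9.22 ± 1.18, Foxp3 at 8.28 ± 0.867 and Ctla4 at 7.77 ± 0.959 TPM. The lowest were Il2ra at 5.52 ± 2.76, Ikzf2 at 1.34 ± 0.194 and Nrp1 at 1.29 ± 0.173 TPM. Il2ra ran from 3.11 to 9.13 TPM between libraries (edgeR, adjusted p = 1.186e-07). The proliferation marker Mki67 lay at 1.93 ± 0.457 TPM. B cell markers moved between libraries: their summed level was 118, 75.6, 75.1 and 29.2 TPM in replicates 1 to 4. In bulk RNA, fewer cells of a type and less RNA per cell cannot be told apart.

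A cell takes up iron by binding iron-loaded transferrin to the transferrin receptor Tfrc and carrying it into endosomes, where Steap3 reduces the iron and Slc11a2 (DMT1) moves it into the cytosol. Iron that is not used is stored inside ferritin, a shell built of heavy chains (Fth1), which oxidise iron, and light chains (Ftl1), and Ncoa4 carries ferritin to the lysosome when iron is needed. Slc40a1 (ferroportin) is the known iron exporter of mammalian cells. The iron regulatory proteins, encoded by Aco1 and Ireb2, bind a hairpin in messenger RNA, the iron responsive element, when iron is scarce. Binding in the 5′ untranslated region blocks translation, as for ferritin, and binding in the 3′ untranslated region protects the Tfrc message. Dividing T cells need iron and are known to raise Tfrc when activated.

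The elements are shown because they set the members apart by the way the iron regulatory proteins act on them, and because the counts below measure the messages that carry them. They were searched in GENCODE M21 transcripts (mouse build mm10) as C, any 5 bases, then the loop CAGTGN, on the transcript strand, with the 5 bases on each side of the loop able to pair (G with U allowed). Each is printed as 30 bases, 5′ to 3′ on the gene's strand, with the 6-base loop in capitals.
Fth1, 5′ UTR, chr19:9982731-9982760, plus strand: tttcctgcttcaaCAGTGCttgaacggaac
Ftl1, 5′ UTR, chr7:45459779-45459808, minus strand: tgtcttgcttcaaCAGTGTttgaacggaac
Slc40a1, 5′ UTR, chr1:45925465-45925494, minus strand: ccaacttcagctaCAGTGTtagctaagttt
Tfrc, 3′ UTR, chr16:32631218-32631247, plus strand: taattatcggaagCAGTGCcttccataatt
Tfrc, 3′ UTR, chr16:32631597-32631626, plus strand: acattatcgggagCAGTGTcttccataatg
Tfrc, 3′ UTR, chr16:32631662-32631691, plus strand: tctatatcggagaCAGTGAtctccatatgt
Tfrc, 3′ UTR, chr16:32631709-32631738, plus strand: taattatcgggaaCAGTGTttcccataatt
Slc11a2, 3′ UTR, chr15:100395153-100395182, minus strand: gagccatcagagcCAGTGTgtttctatggt
The match in Slc11a2 pairs at 4 of 5 stem positions and the other 7 at all 5. The Fth1 and Ftl1 elements share the stem letters ttcaa before the loop and ttgaa after it. Of 21782 genes with a coding transcript, 134 (0.615%) held a match with 5 pairs in an untranslated region, and 915 (4.2%) held a match with at least 4. No match lay in Ireb2, Hfe, Ncoa4 or Steap3. A match in letters is a description and does not show that a protein binds there.

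The ferritin messages were by far the most abundant of the 9. Together they held 2365 ± 76.9 TPM, which is 0.237% ± 0.00769 of all transcripts on this scale and 95.7% ± 0.280 of the summed level of the 9 genes. In contrast, the means of the receptor, the importer, the ferritin cargo receptor and Ireb2 lay between 22 and 36 TPM. Those of the exporter, Hfe and Steap3 lay below 1 TPM. Of the 9 genes, 6 were detected in all 4 libraries, beside 45.7% of all 21764 protein-coding genes.

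**Figure D1:**
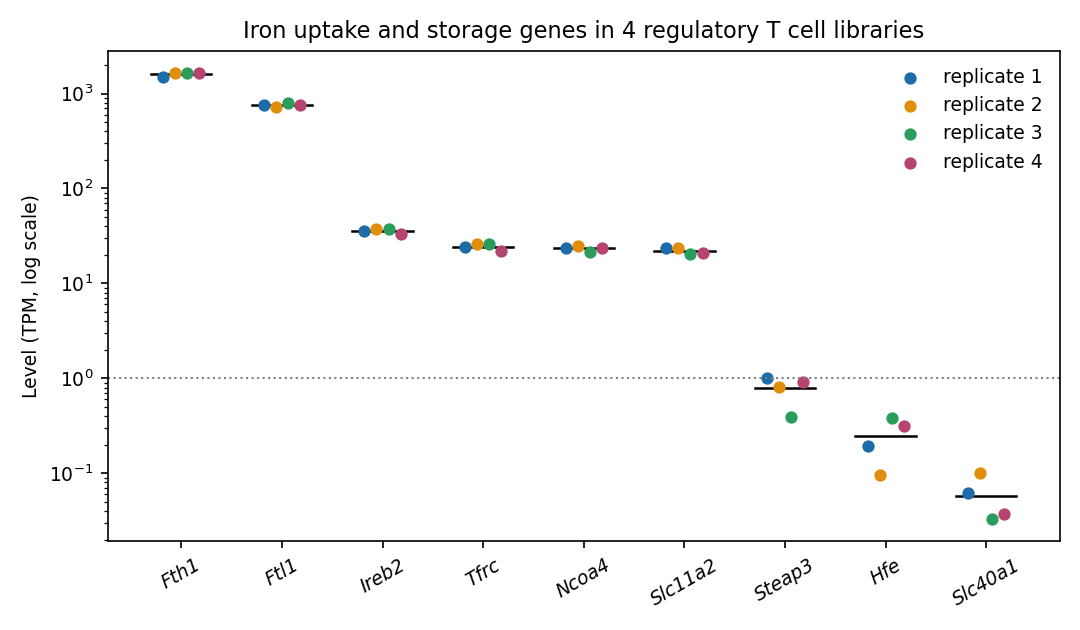
Level of each of the 9 genes in TPM (log scale) in the 4 libraries, 1 point per replicate, with a bar at the mean and a dotted line at 1 TPM. The points of Fth1 and Ftl1 sit near 1604 and 760.5 TPM, 4 genes crowd between 22 and 36 TPM, and Steap3, Hfe and Slc40a1 have means below 1 TPM with wider scatter.

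Fth1, the ferritin heavy chain (ENSMUSG00000024661.6, mm10 chr19:9982703-9985092, plus strand), measured 1505, 1633, 1635 and 1644 TPM in replicates 1 to 4 (1604 ± 66.2). Replicate 1 was the lowest and the other 3 lay close together. Its mean took rank 57 among the 21764 protein-coding genes. The coefficient of variation between libraries was 4.12%, against 0.853% from counting error alone at the counts of single libraries (9452 to 25504). Replicate 1 also had the highest summed level of B cell markers, and their part in the Fth1 value was not tested. The protein-coding genes nearest to Fth1 in level over the 4 libraries, by Euclidean distance of log2(TPM + 0.1), were Sh3bgrl3 (1538 TPM, distance 0.15), Tmsb10 (1571 TPM, distance 0.16) and Rac2 (1640 TPM, distance 0.16).

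Ftl1, the ferritin light chain (ENSMUSG00000050708.16, chr7:45457944-45459884, minus strand), measured 753, 728, 797 and 764 TPM in replicates 1 to 4 (760.5 ± 28.5), rank 139 among protein-coding genes. No library stood apart. This value is uncertain. Fragments with several alignments were left out of the counts, and 91.3% of the 50-base words of the Ftl1 transcript (84 of 92) also occur in transcripts of other genes. Ftl1-ps1 alone holds 68 of the 92 (73.9%). The rows of 12 such copies held 83 counts in all, beside 49900 counts for Ftl1 itself. In addition, 109 of the 1340 exon bases of Ftl1 (8.13%) lie inside Gm22133 on the same strand. By contrast, 6.82% of the Fth1 words were shared, all with Gm6977, which held 2 counts.

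The heavy chain message exceeded the light chain message in 4 of 4 libraries. Their log2 ratio, Fth1 to Ftl1, was 1.00, 1.17, 1.04 and 1.11 in replicates 1 to 4 (1.08 ± 0.07), a 2.11-fold difference. Fth1 made up 67.8% ± 1.11 of the ferritin message. The exact two-sided sign-flip test over libraries gave p = 0.13, also after Benjamini-Hochberg adjustment over 5 ratios, and this is 2 of 16 sign patterns, the smallest p that 4 libraries allow. The size of this ratio depended on the gene length used: with the length of the coding transcript the log2 ratio was 0.51 ± 0.07, still above 0 in every library. How many Ftl1 fragments were lost to its copies was not tested.

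Ncoa4, the receptor that delivers ferritin to the lysosome (ENSMUSG00000056234.14, chr14:32159865-32179855, plus strand), measured 23.5, 24.7, 21.6 and 23.5 TPM in replicates 1 to 4 (23.3 ± 1.27). Replicate 3 was the lowest and replicate 2 the highest. This level is uncertain too, since 43.0% of the Ncoa4 words are shared with Gm6768, whose own row held 154 counts beside 5206 for Ncoa4.

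Tfrc, the transferrin receptor (ENSMUSG00000022797.15, chr16:32608920-32632794, plus strand), measured 24.2, 25.7, 25.9 and 21.7 TPM in replicates 1 to 4 (24.4 ± 1.93). Replicate 4 was the lowest. Its mean took rank 5894 among protein-coding genes, and none of its words were shared with another gene. Beside it, the activation and division markers held 9 of 11 genes above the detection threshold, which 45.7% of protein-coding genes reached. Their levels were uneven: Myc lay at 134.5 ± 10.1, Pcna at 123.5 ± 5.82, Slc3a2 at 108 ± 3.64 and Cd69 at 58.8 ± 7.90 TPM, while Top2a lay at 3.85 ± 0.625, Ccnb1 at 0.534 ± 0.198 and Il2 at 0.442 ± 0.330 TPM. The genes nearest to Tfrc in level were Ntpcr (24.7 TPM, distance 0.054), Sephs1 (24.1 TPM, distance 0.083) and Eny2 (24.8 TPM, distance 0.086).

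The storage message lay far above the uptake message. The log2 ratio of Fth1 to Tfrc was 5.95, 5.98, 5.97 and 6.23 in replicates 1 to 4 (6.04 ± 0.13), a 65.6-fold difference with the same sign in 4 of 4 libraries (exact sign-flip test, p = 0.13, adjusted p = 0.13). Replicates 1 to 3 lay close together and replicate 4 above them. Both messages carry the elements printed above, Fth1 in its 5′ and Tfrc in its 3′ untranslated region. Message levels say nothing of how much of either protein is made.

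Slc11a2, the importer that moves ferrous iron out of the endosome (ENSMUSG00000023030.16, chr15:100387898-100425072, minus strand), measured 23.6, 23.6, 20.2 and 20.7 TPM in replicates 1 to 4 (22 ± 1.81). Replicates 1 and 2 were the higher pair. Only the isoform Slc11a2-205 of its annotated coding transcripts carries the match shown above. Counts per gene do not separate these isoforms.

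Steap3, the endosomal reductase that prepares iron for Slc11a2 (ENSMUSG00000026389.16, chr1:120190757-120272705, minus strand), measured 1.01, 0.819, 0.393 and 0.908 TPM in replicates 1 to 4 (0.783 ± 0.272). Replicate 3 was the lowest and rested on 15 counts, with an exact 95% Poisson interval of 0.220 to 0.649 TPM. Its interval lay just below that of replicate 2, which was 0.651 to 1.02 TPM. Intervals cover counting error only. Replicate 3 also had the highest summed level of red cell markers, 4.12 TPM against 1.37 to 1.94 in the others. Of this sum, 3.12 TPM was Hbb-bs alone, from 16 counts. Of the 9 matched red cell markers 0 were detected, beside 45.7% of protein-coding genes. Their part in the Steap3 value was not tested.

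Hfe, a class I-like molecule that binds Tfrc and competes with transferrin for it (ENSMUSG00000006611.14, chr13:23702034-23710854, minus strand), measured 0.193, 0.0958, 0.378 and 0.313 TPM in replicates 1 to 4 (0.245 ± 0.13). These levels rested on 5, 6, 9 and 20 counts. The intervals of all 4 libraries overlapped, from 0.0352 to 0.209 TPM in replicate 2 to 0.173 to 0.717 TPM in replicate 3. The receptor message exceeded that of its partner in 4 of 4 libraries, with a log2 ratio of Tfrc to Hfe of 6.38, 7.04, 5.77 and 5.73 in replicates 1 to 4 (6.23 ± 0.62; exact sign-flip test, p = 0.13, adjusted p = 0.13). With a pseudocount of 1 TPM in place of 0.1 it was 4.35 ± 0.21.

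Slc40a1, the iron exporter (ENSMUSG00000025993.10, chr1:45908068-45926523, minus strand), was the lowest of the 9. It measured 0.0612, 0.101, 0.0333 and 0.0372 TPM in replicates 1 to 4 (0.0583 ± 0.0313), from 4, 16, 2 and 6 counts. The exact 95% Poisson intervals of all 4 libraries overlapped. The highest upper limit was 0.165 TPM, in replicate 2. These values divide by all 9000 exon bases of the gene, and with the coding transcript of 3370 bases the mean was 0.110 ± 0.0589 TPM. Macrophages that recycle red cells are known for high Slc40a1. Of 12 macrophage markers 2 were detected (Cd68 at 11.7 ± 1.05 and Lyz2 at 1.78 ± 0.919 TPM), beside 45.7% of protein-coding genes. The summed level of the 12 markers was 13.1 to 16.5 TPM per library, and Vsig4 had no count. Their part in the Slc40a1 counts was not tested.

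The exporter message lay below the importer message in 4 of 4 libraries. On the log2 scale, Slc40a1 to Slc11a2 was -7.20, -6.88, -7.25 and -7.24 in replicates 1 to 4 (-7.14 ± 0.18; exact sign-flip test, p = 0.13, adjusted p = 0.13). The Slc40a1 mean lies below the pseudocount of 0.1 TPM, so the size of this ratio depends on it, and with a pseudocount of 1 TPM it was -4.44 ± 0.08.

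**Figure D2:**
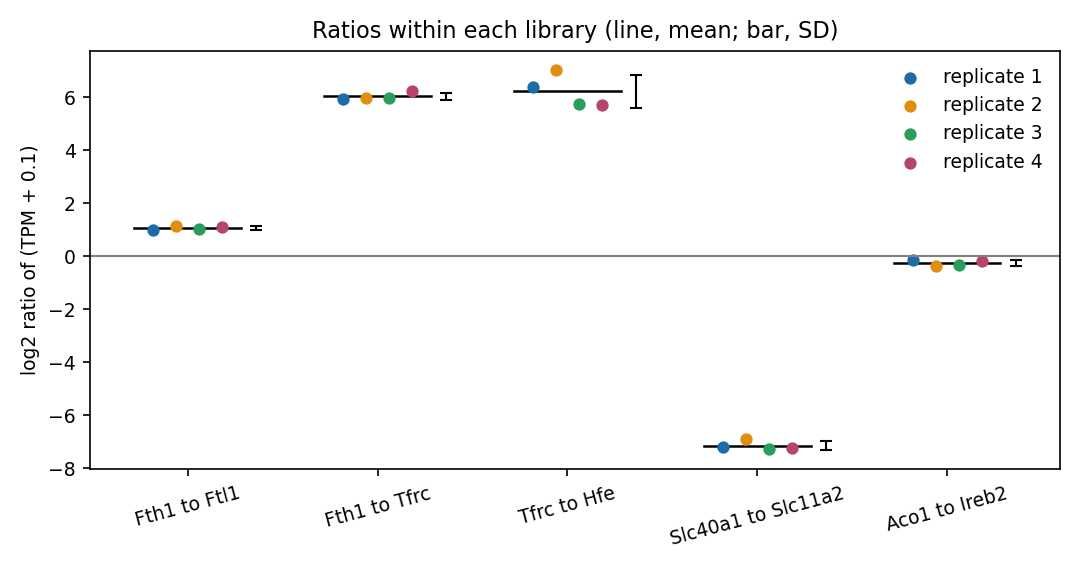
Log2 ratio of TPM + 0.1 within each library for 5 pairs of genes, 1 point per replicate, with a line at the mean and a bar for the SD beside it. Every pair keeps its sign in all 4 libraries, and the pair Tfrc to Hfe has the widest spread (SD 0.62).

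Ireb2, which encodes iron regulatory protein 2 and is controlled mostly through degradation of the protein (ENSMUSG00000032293.8, chr9:54863789-54912530, plus strand), measured 35.9, 37.4, 37.4 and 33.5 TPM in replicates 1 to 4 (36 ± 1.84). Replicate 4 was the lowest, as it was for Tfrc. The other regulatory protein comes from Aco1, which also serves as the cytosolic aconitase. Aco1 measured 32.3, 29.0, 29.6 and 29.8 TPM in replicates 1 to 4 (30.2 ± 1.45), below Ireb2 in 4 of 4 libraries. The log2 ratio of Aco1 to Ireb2 was -0.25 ± 0.11 (-0.15, -0.36, -0.34 and -0.16 in replicates 1 to 4; exact sign-flip test, p = 0.13, adjusted p = 0.13). With coding transcript lengths it was -0.74 ± 0.11.

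Ordered by mean TPM, the genes ran Fth1, Ftl1, Ireb2, Tfrc, Ncoa4, Slc11a2, Steap3, Hfe and Slc40a1. The means of these same libraries set the order, so tests on neighbours in it cannot support it. Of the 8 pairs of neighbours in this order, 5 kept their order in every library (exact sign-flip test, p = 0.13 each, adjusted p = 0.20 over 8 pairs). Among these 5, Steap3 exceeded Hfe by only 0.047 on the log2 scale in replicate 3, from 15 and 9 counts. The other 3 pairs changed order in 1 library each, and their ranges overlapped. Tfrc exceeded Ncoa4 by 0.06 ± 0.15 on the log2 scale, in 3 of 4 libraries (p = 0.625, exact sign-flip test). Ncoa4 exceeded Slc11a2 by 0.09 ± 0.08, in 3 of 4 libraries (p = 0.25, exact sign-flip test). Hfe exceeded Slc40a1 by 1.06 ± 0.84, in 3 of 4 libraries (p = 0.25, exact sign-flip test), each on few counts.

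The order among Tfrc, Ncoa4 and Slc11a2 also turned on how length was counted. Relative to Tfrc, Slc11a2 lay at -0.15 ± 0.14 on the log2 scale with all exon bases of the gene and at 0.04 ± 0.14 with the length of its coding transcript. Ncoa4 lay at -0.06 ± 0.15 and -0.27 ± 0.15 on the same scales. Ireb2 stayed above Tfrc on both, by 0.56 ± 0.04 and 0.94 ± 0.04, in all 4 libraries.

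**Figure D3:**
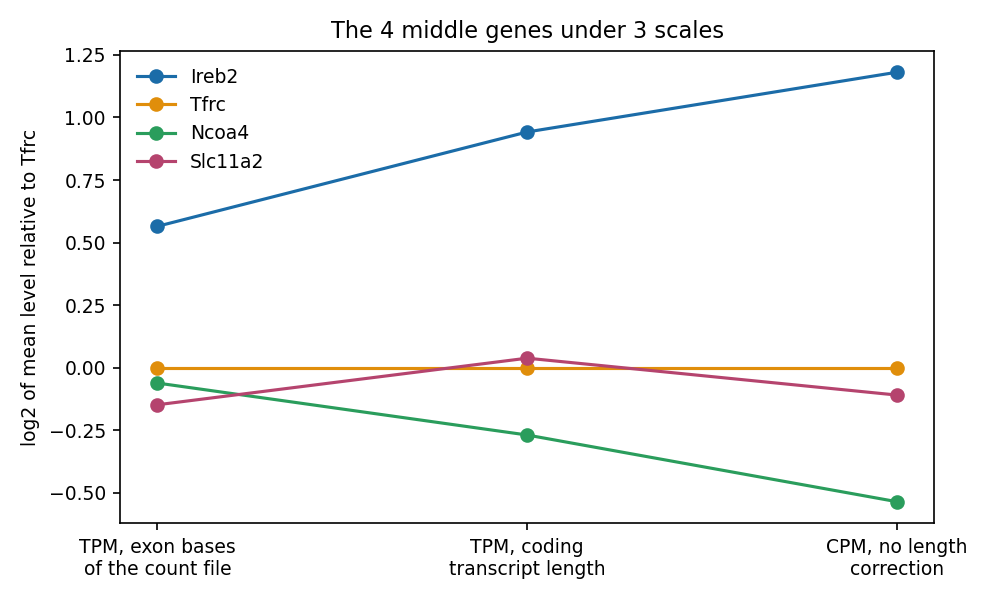
Log2 of the mean level of Ireb2, Ncoa4 and Slc11a2 relative to Tfrc on 3 scales: TPM with all exon bases, TPM with the coding transcript length, and CPM, a count scaled to the library total with no length correction, where genes of different length are not comparable. Ireb2 stays above Tfrc on each, while Slc11a2 moves from -0.15 to 0.04 between the length-corrected scales and Ncoa4 from -0.06 to -0.27.

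Across the 4 libraries, 6 of the genes had a coefficient of variation of TPM below 10%, and Steap3, Hfe and Slc40a1 ranged more widely. Of the 9 genes, 7 passed the filter on low counts, all but Hfe and Slc40a1. None of these 7 was called variable between libraries by edgeR's residual deviance at the trended dispersion (adjusted p = 1 for each), beside 1.13% of the 12554 genes tested. At an unadjusted p below 0.05 the count was 0 of 7, beside 5.23% of all genes tested. With DESeq2 dispersions it was 0 of 7 both adjusted, beside 0.948% of all genes, and unadjusted, beside 4.59%. The coefficient of variation of TPM was 3.74% for Ftl1, 4.12% for Fth1, 5.11% for Ireb2, 5.45% for Ncoa4, 7.93% for Tfrc and 8.23% for Slc11a2. It was 34.7% for Steap3, against 16.8% from counting error alone, and the unadjusted p of Steap3 was 0.109 (edgeR, adjusted p = 1). A p that misses the threshold does not show that the libraries were equal.

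**Figure D4:**
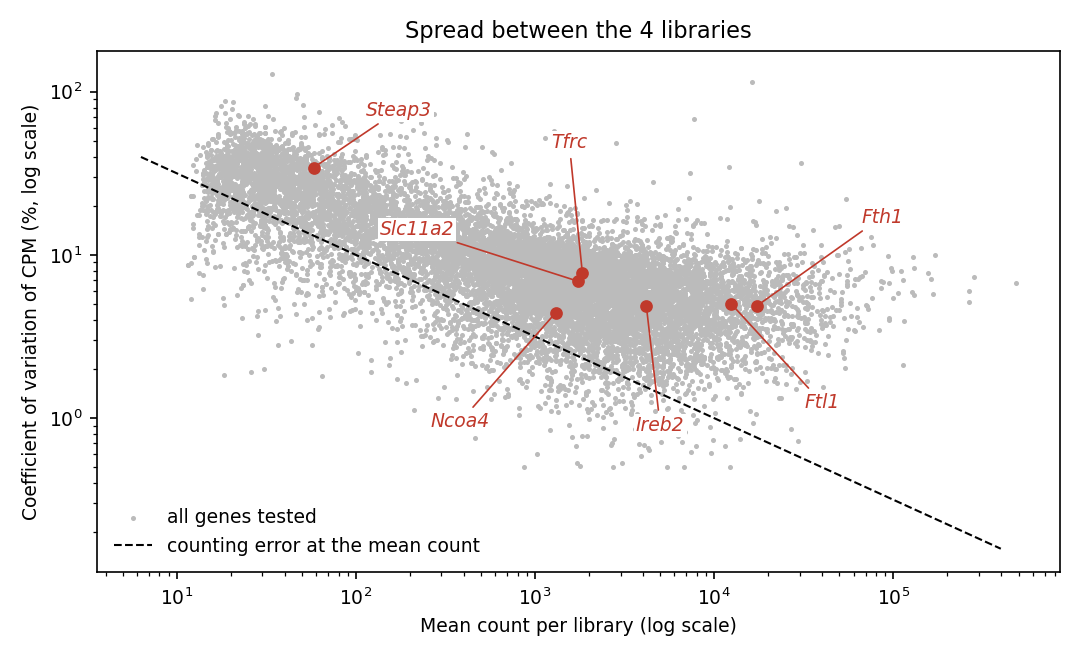
Coefficient of variation of CPM between the 4 libraries against mean count per library (both log scales) for the 12554 genes tested, with the 7 tested iron genes in red and the counting error at each mean count as a dashed line. The 7 genes lie within the cloud of genes of like abundance, Steap3 at the left with few counts.

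Beside the 9 genes, 82 other genes of iron handling were grouped by role, of which 58 were detected, beside 45.7% of protein-coding genes. The same share stands beside the count of detected genes in each group below. Among the 62 that passed the filter, 0 were called variable by edgeR, beside 1.13% of all genes, and 0 had an unadjusted p below 0.05, beside 5.23%. With DESeq2 dispersions 0 were called, beside 0.948%, and 0 had an unadjusted p below 0.05, beside 4.59%.

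Among 11 other uptake genes, 3 were detected. These were Mcoln1, a lysosomal cation channel that can release iron (40.3 ± 2.26 TPM), and the metal transporters Slc39a14 (13 ± 0.674 TPM) and Slc39a8 (2.01 ± 0.157 TPM). The median of the 11 means was 0.0583 TPM, against 23.3 TPM for the 9 genes. Steap1, Steap2 and Steap4, the relatives of Steap3, had no count in any library, which allows up to 0.326, 0.0370 and 0.143 TPM in the shallowest library (3 counts, counting error only). Tfr2, the second transferrin receptor, lay at 0.0824 ± 0.0632 TPM, and transferrin itself (Trf) had 2 counts in all.

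Among 8 iron chaperones and export partners, 4 were detected, all of them poly(C)-binding proteins. Pcbp2 lay at 586 ± 28.6 TPM, Pcbp1 at 499 ± 23.6, Pcbp4 at 13.6 ± 0.958 and Pcbp3 at 11.4 ± 0.673. Pcbp1 and Pcbp2 are known to load iron into ferritin and also bind RNA. The ferroxidases that work with Slc40a1 in other tissues were at or near 0: Heph and Hephl1 had no count and Cp had 2, and mitochondrial ferritin (Ftmt) had none either. A count of 0 allows up to 0.0587 TPM for Heph, 0.0854 for Hephl1 and 0.310 for Ftmt.

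Among 12 regulators, 6 were detected. The iron-sensing adaptor Fbxl5, which marks the Ireb2 protein for degradation, lay at 24 ± 1.31 TPM, and its ligase partners Skp1a and Cul1 at 170 ± 11.9 and 70.6 ± 3.68 TPM. Herc2, a ligase that acts on the Ncoa4 protein, lay at 112 ± 2.35 TPM, and the bone morphogenetic protein receptor Bmpr2 at 1.74 ± 0.167 TPM. Of the 6 not detected, Hamp, which encodes the hormone hepcidin, had 4 counts, all in replicate 3, and Erfe had 4, all in replicate 1. Hfe2 (hemojuvelin), Tmprss6 and Bmp6 had none, which allows up to 0.222, 0.141 and 0.187 TPM.

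Mitochondrial iron and iron-sulfur cluster genes were detected in 24 of 25 cases, with a median of 38.7 TPM. The highest were Hspa9, a chaperone of cluster transfer (183 ± 9.95 TPM), Nubp2, a cytosolic scaffold (122 ± 6.51 TPM), and Glrx5, a glutaredoxin that passes clusters on (95.0 ± 5.43 TPM). The lowest were Bola3 (11.2 ± 1.55 TPM) and Fdx1l, a mitochondrial ferredoxin, at 1.42 ± 0.422 TPM with 0.842 in replicate 2. The mitochondrial iron importers Slc25a28 and Slc25a37 lay at 65.6 ± 1.66 and 45.5 ± 2.32 TPM. These importers were named after their values were seen.

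Heme genes were detected in 18 of 22 cases, with a median of 21.7 TPM. The highest were the heme oxygenase Hmox2 (71.5 ± 1.91 TPM), Ppox of heme synthesis (64.9 ± 3.99 TPM) and the heme-binding Pgrmc1 (63.8 ± 4.04 TPM). Flvcr2 had no count, which allows up to 0.131 TPM, and Alas2, the heme synthesis enzyme of red cell precursors, lay at 0.0915 ± 0.112 TPM. The inducible heme oxygenase Hmox1 measured 1.18, 1.27, 2.74 and 1.15 TPM in replicates 1 to 4. Replicate 3 was the highest for Hmox1, from 32 counts. It was also the library with the most red cell marker signal, mostly Hbb-bs at 16 counts. The part of this signal was not tested.

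Of 5 further messages known or proposed to carry an iron responsive element, 3 were detected. Among them, Epas1, a hypoxia-inducible factor, lay at 25.9 ± 1.22 TPM and Cdc14a, a phosphatase, at 4.22 ± 0.370 TPM. Cdc42bpa lay at 0.222 ± 0.0690 TPM, and Alas2 belongs here as well. In the letters searched, Alas2 held a match with 5 pairs and Cdc14a with 4, while none was found in Epas1 or Cdc42bpa.

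**Figure D5:**
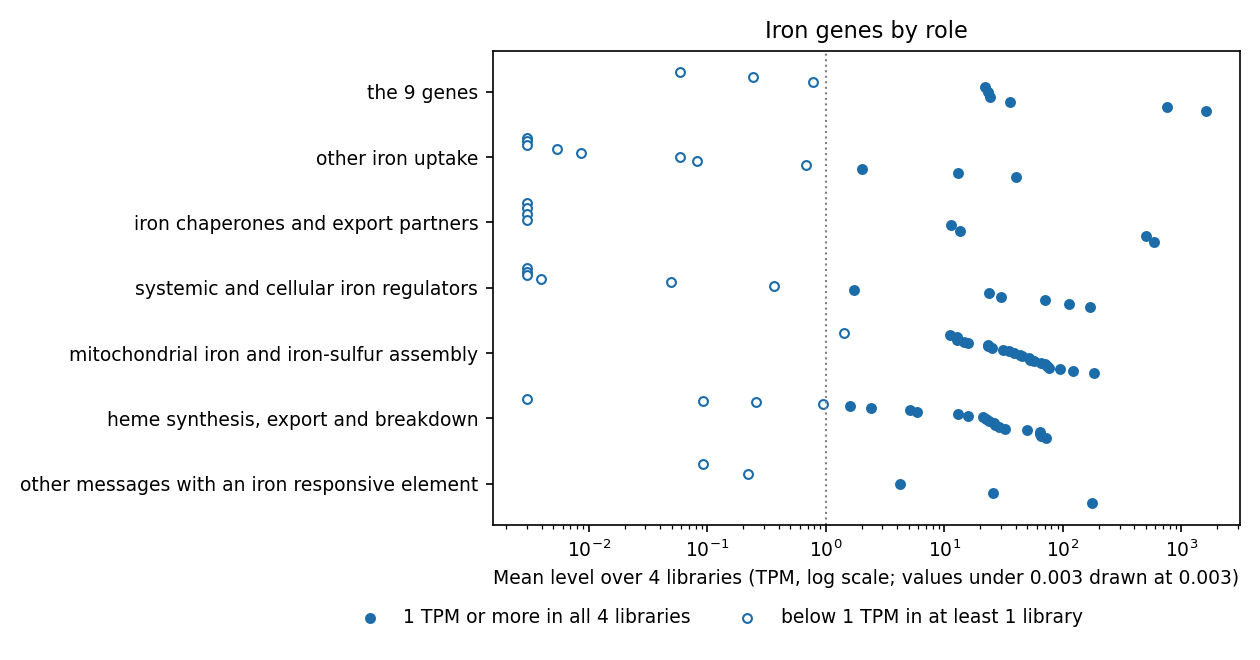
Mean TPM over 4 libraries (log scale, values under 0.003 drawn at 0.003) of the 9 genes and of 6 further groups of iron genes, 1 point per gene. Filled points reached 1 TPM in all 4 libraries. Of the genes of mitochondrial iron and iron-sulfur assembly 24 of 25 are filled, and of the other uptake genes 3 of 11.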

How the data were processed

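Total RNA libraries of 4 regulatory T cell samples (1 group) were used. The labels cite a library protocol titled for poly(A) RNA. The values are raw fragment counts deposited by the authors. Per the file headers, featureCounts 1.4.6-p4 counted fragments whose 2 ends both aligned over exons of GENCODE M13 genes on mm10 with strand setting 2, from alignments named for STAR, with no setting that would count multiply aligned fragments. Read length and alignment options are not given in the sources used here.

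TPM was computed here from count and exon length, and log2 ratios use TPM + 0.1. Symbols came from GENCODE M21 on mm10 for 50376 of 50600 genes. Gene coordinates (1-based) and exon bases are those of GENCODE M13 in the count files, and element coordinates are those of GENCODE M21. Elements and shared 50-base words were searched in GENCODE M21 transcripts, every 10 bases for the words. Copies outside annotated transcripts were not checked. For variability, edgeR 4.0.16 ran under R 4.3.3 after filterByExpr and TMM scaling. The residual deviance of a fit with an intercept alone, at the trended dispersion, was set against a chi-square distribution with 3 degrees of freedom, at a Benjamini-Hochberg adjusted p of 0.05. The code was tested on simulated data. DESeq2 1.42.0 gave an alternative. For ratios a two-sided exact sign-flip test over libraries was used. Other values came from Python 3.11.15 (scipy 1.17.1, pandas 2.3.3, numpy 2.4.6).

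The 9 members and all lists were chosen with earlier results of these data known. Named genes are the 9, the genes of a fixed ratio, the 3 highest and 2 lowest of each iron list, list genes called variable, and the 3 genes nearest Fth1 and Tfrc in level. Of the marker lists, the genes beside a result are named. Some genes that this rule takes are not reported here by name. Other names were chosen after their values were seen. Of 8 B cell markers 5 were detected, beside 45.7% of protein-coding genes, and 7 of 7 tested were variable (among them Igkc, Ighd, Cd79a, Cd79b, Ms4a1 and Pax5), beside 1.13% of all genes, as was Il2ra of the regulatory T cell list. Of 8 neutrophil markers 1 was detected, and of 7 dendritic cell markers 0. The symbol Ahsp matched no row. Alternatives changed the pseudocount, threshold, length, total, scaling, filter and tool, or left out each replicate.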

Additional observations from a re-analysis of the deposited data

Results flagged for a closer look

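In 73 levels and ratios of iron genes over the 4 libraries, the highest or lowest library was compared with its nearest neighbour by Dixon's criterion, and 6 passed. Chance alone passes about 1 in 20. The Fth1 level of replicate 1, 1505 TPM, lay below the 1633 to 1644 TPM of the others. The log2 ratio of Fth1 to Tfrc in replicate 4, 6.23, lay above 5.95 to 5.98. Likewise, the log2 ratio of Slc40a1 to Slc11a2 in replicate 2, -6.88, lay above -7.25 to -7.20, and rested on 16 Slc40a1 counts. The cysteine desulfurase gene Nfs1 measured 42.3 TPM in replicate 1, above 37.2 to 37.8. Hmox1 measured 2.74 TPM in replicate 3, above 1.15 to 1.27. Epas1 measured 27.75 TPM in replicate 4, above 25.2 to 25.4. None of these genes was called variable by edgeR (adjusted p = 1 for Fth1, Tfrc, Slc11a2, Nfs1, Hmox1 and Epas1), and Slc40a1 did not pass the filter on low counts.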

How the results depend on the processing

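Of 208 recomputed values, 3 changed sign. Ratios that kept their sign could still change in size: without length, as CPM, Fth1 to Tfrc was 3.20 and Aco1 to Ireb2 -1.33 on the log2 scale, and with a pseudocount of 1 TPM Slc40a1 to Slc11a2 was -4.44. The sign changes were between neighbours in the middle of the order. The log2 ratio of Tfrc to Ncoa4 ran from -0.0050 without replicate 3 to 0.12 without replicate 4, and that of Ncoa4 to Slc11a2 was -0.43 as CPM without length and -0.31 with coding transcript length, a length chosen after seeing the data. The 5 fixed ratios kept their sign under each alternative run, with a range without each replicate in turn of 1.05 to 1.10 for Fth1 to Ftl1, 5.97 to 6.06 for Fth1 to Tfrc, 5.96 to 6.40 for Tfrc to Hfe, -7.23 to -7.11 for Slc40a1 to Slc11a2 and -0.29 to -0.22 for Aco1 to Ireb2. With 3 libraries the exact sign-flip test cannot go below p = 0.25. Detected members stayed at 6 of 9 at 0.5 and 5 TPM and without any replicate. Of the 9 genes 0 were called variable in any setting, while Steap3 reached an unadjusted p of 0.0414 without replicate 2 (edgeR, adjusted p = 0.999). Over all genes the count of variable genes was 142, and 139 with other size factors, 119 with DESeq2 dispersions, 88 with no low-count filter, 74 at an adjusted p of 0.01 and 60 to 85 without each replicate. Coding transcript lengths gave 1053 TPM for Fth1 and 0.110 for Slc40a1, and a total over protein-coding genes gave 1738 TPM for Fth1. No paired analysis was possible because there is 1 group. Depth limits Steap3, Hfe and Slc40a1, whose levels rest on 2 to 93 counts per library.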
